A study of Mus musculus with 4 samples.

Results

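The 78 genes described here encode parts of the cilium or the transcription regulators that switch cilium genes on. They were chosen by name, not by level. They are the protein-coding genes of the deposited table whose symbols begin with Ift, Bbs, Cfap or Dnah followed by a number, together with Foxj1, Gmnc, Mcidas, Rfx2, Rfx3, Rfx4, Arl13b, Ccdc39, Ccdc40 and Spag17. The table holds 45703 genes, of which 21843 are protein-coding. One further name, Dnai1, appears in the table under its older symbol Dnaic1, and this dynein intermediate chain gene was kept out of the 78. It measured 2.78 ± 0.08 counts per 1000000 counts of the library (CPM, mean ± SD, n = 4).

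The data are RNA-seq libraries from 4 cultures of cortical astrocytes of wild-type CD-1 mice, an outbred strain, taken at postnatal day 4. All 4 belong to 1 group, so there is no treated or control group to compare. Glial cells of the frontal cortex were grown with serum, B27 and 10 ng/ml EGF, reseeded at day 6 in vitro, harvested 3 days later, and held in serum-free Ham's medium for 1 h before RNA was taken. The labels name no sorting step. The series calls the cultures biological replicates, but neither the number of mice behind each nor the number of preparations is stated, so a p-value here speaks for the spread among these 4 libraries, part of which may be technical.

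A primary cilium is a single, usually immotile antenna that grows from the mother centriole of most cells, astrocytes included, and receives signals such as Hedgehog. It is built and maintained by intraflagellar transport (IFT), in which the IFT-B complex carries cargo to the tip and the IFT-A complex carries it back, while the BBSome moves membrane proteins out of the cilium. Motile cilia, which ependymal cells of the brain carry in tufts, add dynein arms, radial spokes and a central apparatus, and their genes are switched on by FOXJ1 and by RFX factors.

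Libraries held 37300485 to 42369109 counts, so that 1 count was 0.0236 to 0.0268 CPM. All 10 astrocyte markers passed the limit for an expressed gene (1 CPM or more in each of the 4 libraries), with a median of 142.7 RPKM (CPM per kilobase of combined exon length, the scale used for levels between genes). Of 10 ependymal markers 5 did so, among them Foxj1 itself, Rsph1 and Rarres2, whereas Tmem212 had 1 count and Ccdc153 had 28 counts over the 4 libraries. Of 6 choroid plexus markers 2 did so, and Kcne2 was at 0. Among other cell types 6 of 8 oligodendrocyte lineage, 5 of 8 neuron and 4 of 6 fibroblast markers were expressed. So were 5 of 6 microglial and 2 of 5 endothelial markers. Culture 4 stood apart from cultures 1 to 3: the median biological coefficient of variation (BCV, the spread between libraries beyond counting error) over 17105 genes was 0.0941 with all 4 cultures and 0.0255 without culture 4. The spread of the cilium genes is therefore also given without it. In RNA from whole cultures, fewer cells of a type and less RNA per cell cannot be told apart.

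RFX factors bind the X-box, an imperfect inverted repeat found upstream of many ciliary genes, so the promoters of the genes were searched for it. RefSeq promoter entries of 300 bases (250 before and 50 after the start, build GRCm38.p6) existed for 66 of the 78 genes. The X-box was searched by its consensus on both strands, and the single arm GTTGCC, also on both strands. A full X-box was found in 5 of the 66 genes (7.58%), against 0.796% of 27025 genes with an entry and 1.20% of expressed protein-coding genes. The single arm, which can lie within a full X-box, was found in 25 of 66 (37.9%), against 14.1% of all genes and 15.1% of expressed protein-coding genes. A match describes the letters only.

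The 5 promoters with a full X-box are shown here because they are all the matches of the RFX binding motif among the 66. Each is printed 5′ to 3′ on the strand of its gene, with the X-box in capitals. A window that reaches into the gene is cut to 30 bases.
Ift57, chr16:49699177-49699250, plus strand: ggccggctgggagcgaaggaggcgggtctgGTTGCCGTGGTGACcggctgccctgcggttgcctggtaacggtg
Cfap298, chr16:90934994-90935067, minus strand: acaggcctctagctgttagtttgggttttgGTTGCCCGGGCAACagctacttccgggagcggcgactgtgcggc
Cfap44, chr16:44394764-44394793, plus strand: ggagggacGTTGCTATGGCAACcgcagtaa
Cfap45, chr1:172521103-172521132, plus strand: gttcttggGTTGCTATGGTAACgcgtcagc
Bbs1, chr19:4906605-4906634, minus strand: ctgagctgGTTGCCAAGGCGACgcctggga
All 5 of these genes were expressed. The first capital lies 188 bases before the start in Cfap298, 87 before it in Ift57, 27 in Cfap44 and 19 in Cfap45, and at base 2 of the transcript in Bbs1. The Cfap298 match reads as an X-box on both strands.

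Single arms occurred in each of the larger role groups, in 5 of 11 IFT genes, 3 of 8 BBS genes, 9 of 24 CFAP genes and 4 of 14 DNAH genes with an entry. The 4 DNAH genes are Dnah10 and the near-identical copies Dnah7a, Dnah7b and Dnah7c, which are not separate cases. The following carry the arm, in capitals, and belong to genes whose levels are described below: the highest IFT gene, an IFT-A gene that was high in culture 4, the CFAP gene that is highest by the deposited exon length, and an RFX gene.
Ift27, chr15:78174073-78174102, minus strand: gggttgatgatgGTTGCCaggagcctgttt
Ift140, chr17:25015947-25016012, plus strand: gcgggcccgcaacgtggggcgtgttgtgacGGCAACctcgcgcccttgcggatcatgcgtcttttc
Cfap20, chr8:95434928-95434993, minus strand: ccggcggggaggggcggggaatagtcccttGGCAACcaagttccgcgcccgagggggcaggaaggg
Rfx2, chr17:56831089-56831154, minus strand: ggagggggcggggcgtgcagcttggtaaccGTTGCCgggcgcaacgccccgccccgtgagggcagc
In Ift140 and Cfap20 the arm lies on the opposite strand and so reads GGCAAC. Among expressed members with an entry 21 of 53 held the arm (39.6%), and among members that were not expressed 4 of 13 did (30.8%).

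The first question was which cilium genes these astrocyte cultures expressed. By the limit of 1 CPM in each library, 59 of the 78 genes were expressed (75.6%). The same was true of 58.1% of protein-coding genes and 32.2% of all genes of the table. The groups differed in this count: all 14 IFT genes, all 8 BBS genes and Arl13b were expressed, against 20 of 31 CFAP genes and 9 of 15 DNAH genes. The count depended on gene length, since with a limit of 1 TPM, a unit that divides by length, 45 of the 78 genes passed (57.7%), against 56.6% of protein-coding genes. DNAH genes, which are very long, changed the most, from 9 to 1 of 15, and CFAP genes from 20 to 15 of 31, while all IFT and BBS genes still passed.

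Levels per length separated the groups further. The median over all members of a group was 13.6 RPKM for IFT genes, 3.73 for BBS genes, 0.311 for CFAP genes and 0.112 for DNAH genes. For scale, the median was 1.11 RPKM over all 78 genes, 1.42 over all protein-coding genes and 8.04 over expressed protein-coding genes. Above that last value lay 10 of 14 IFT genes and 5 of 31 CFAP genes, and no BBS or DNAH gene.

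**Figure D1:**
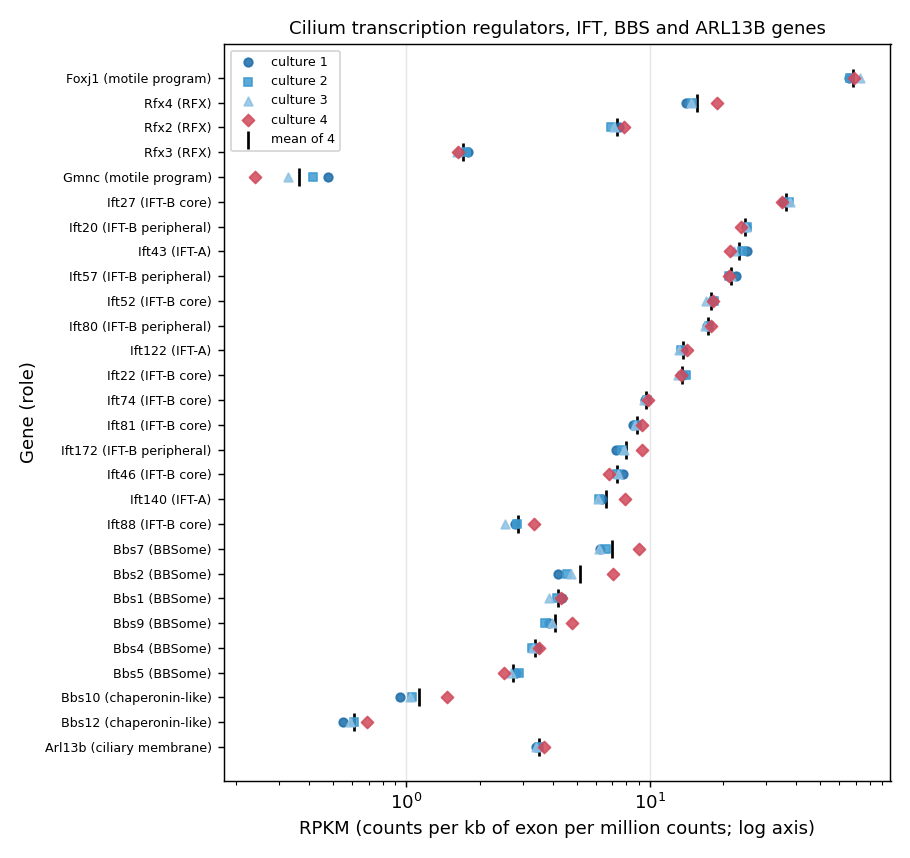
RPKM (horizontal, log axis) of the expressed transcription regulators, the IFT and BBS genes and Arl13b in each of the 4 cultures (points by culture, vertical bar for the mean). Foxj1 is the highest gene at a mean of 68.6 RPKM, and the means of IFT genes lie between 2.88 and 36.2.

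Among the transcription regulators, Foxj1, the master regulator of motile cilia (chr11:116330704-116335499, minus strand, GeneID 15223), was the highest of all 78 genes. It measured 65.6, 66.5, 73.2 and 69.1 RPKM in cultures 1 to 4, with a mean of 68.6 ± 3.39 (SD, n = 4), or 189.1 ± 9.34 CPM. All 4 cultures lay close together, and the mean was at the 92.3rd percentile of expressed protein-coding genes. The other 2 regulators of multiciliated cells were low. Gmnc, which acts upstream in the multiciliation program, measured 2.26, 1.97, 1.55 and 1.13 CPM, a mean of 1.73 ± 0.49. Culture 4 had the lowest value, and every library was above 1 CPM. Mcidas, which drives centriole amplification, had 2, 0, 0 and 2 counts and was not expressed by the rule used.

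The 3 RFX genes of the list were all expressed and stood in a clear order per length. Rfx4, an RFX gene known from neural progenitors and astroglia, measured 14.1, 15.0, 14.7 and 18.9 RPKM, with culture 4 above the rest. Rfx2 measured 7.47, 6.95, 7.12 and 7.84 RPKM. Rfx3 measured 1.79, 1.76, 1.62 and 1.64 RPKM. The ranges of the 3 genes did not overlap. Pairs of members of one family were compared by edgeR's quasi-likelihood test with Benjamini-Hochberg adjustment over 622 pairs, with library and exon length in the model. Rfx4 was 2.12-fold above Rfx2 (log2 ratio 1.09 ± 0.06, SE; edgeR adjusted p = 5.3e-06). The ratio was 3.38-fold with GENCODE lengths and 3.40-fold without the length term. Rfx2 was 4.32-fold above Rfx3 (log2 ratio 2.11 ± 0.06, SE; edgeR adjusted p = 2.31e-07). The order of Rfx2 and Rfx3 rests on the long exon model of Rfx3: their counts without the length term did not pass the test (log2 ratio -0.03, edgeR adjusted p = 0.665), and GENCODE lengths gave a log2 ratio of 0.80.

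IFT genes were expressed throughout, and their mean levels ran from 2.88 to 36.2 RPKM. Ift27, a small GTPase of the IFT-B core, was the highest at 35.3, 37.2, 37.7 and 34.9 RPKM. Ift20, a peripheral IFT-B protein also found at the Golgi, measured 24.7, 25.2, 24.8 and 23.7 RPKM. Ift43, an IFT-A subunit, measured 25.2, 24.0, 22.1 and 21.4 RPKM. Ift27 was above Ift20 in all 4 cultures, by 1.47-fold (log2 ratio 0.56 ± 0.04, SE; edgeR adjusted p = 1.24e-05). Ift20 and Ift43 overlapped and did not pass the test (edgeR adjusted p = 0.14).

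The IFT gene with the lowest level was Ift88, an IFT-B core gene long used as a marker of ciliogenesis, at 2.81, 2.85, 2.55 and 3.33 RPKM. Its neighbour in the order, Ift140, was 2.30-fold higher (log2 ratio 1.20 ± 0.05, SE; edgeR adjusted p = 7.99e-07). The remaining peripheral IFT-B genes measured 21.6 ± 0.68 (Ift57), 17.3 ± 0.43 (Ift80) and 8.01 ± 0.88 RPKM (Ift172). The remaining IFT-B core genes measured 17.9 ± 0.59 (Ift52), 13.6 ± 0.44 (Ift22), 9.63 ± 0.17 (Ift74), 8.87 ± 0.34 (Ift81) and 7.33 ± 0.38 RPKM (Ift46). The remaining IFT-A genes measured 13.6 ± 0.46 (Ift122) and 6.64 ± 0.84 RPKM (Ift140), all as SD with n = 4. IFT-A, IFT-B core and peripheral IFT-B genes thus interleaved in level, and their medians were 13.6, 9.63 and 19.5 RPKM. The order of these medians depends on length. With GENCODE lengths Ift122 and Ift74, the middle IFT-A and IFT-B core genes, were at 14.8 and 19.7 RPKM, the reverse order. Ift46, whose counts were not whole in all 4 libraries, was at 18.8 RPKM with GENCODE lengths.

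Over all families 586 of 622 pairs passed the edgeR test (94.2%). The family counts are parts of this total. No pairs of other genes were tested, so the counts do not set these families apart from other genes. In the IFT family 85 of 91 pairs did. Of the 13 pairs that are neighbours in the IFT order by the deposited exon length, 7 passed and 6 did not. Among the latter were Ift122 and Ift22, Ift52 and Ift80, and Ift46 and Ift140.

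BBS genes came next. Bbs7, a subunit of the BBSome, was the highest by the deposited exon length, at 6.26, 6.63, 6.18 and 9.02 RPKM, with culture 4 far above the rest. Bbs2, another BBSome subunit, measured 4.20, 4.59, 4.76 and 7.03 RPKM and was again highest in culture 4. Bbs1, which binds cargo, measured 4.37, 4.17, 3.87 and 4.31 RPKM with no such gap. Bbs7 was 1.37-fold above Bbs2 (log2 ratio 0.46 ± 0.06, SE; edgeR adjusted p = 0.000337), but counts alone, with no division by length, did not separate them (log2 ratio 0.07, edgeR adjusted p = 0.299). Bbs2 and Bbs1 did not pass the test (edgeR adjusted p = 0.0755). The top rank depends on length: Bbs1 was the highest at 13.2 RPKM with GENCODE lengths, against 7.70 for Bbs7, and at 24.4 CPM against 20.02.

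The other BBSome genes measured 4.08 ± 0.50 (Bbs9), 3.38 ± 0.10 (Bbs4) and 2.73 ± 0.17 RPKM (Bbs5), as SD with n = 4. Both chaperonin-like genes, whose proteins help assemble the BBSome, were lower than every BBSome gene. Bbs10 measured 0.946, 1.06, 1.03 and 1.47 RPKM, highest in culture 4. Bbs12, the lowest by the deposited exon length of 8832 bases, measured 0.548, 0.607, 0.586 and 0.687 RPKM. With GENCODE lengths Bbs10 was the lower one, at 1.13 RPKM against 2.24, as it was in CPM (3.11 against 5.36). In this family 26 of 28 pairs passed the edgeR test, and 5 of 7 neighbours. Arl13b, a GTPase of the ciliary membrane and a common stain for the primary cilium, measured 3.40, 3.52, 3.40 and 3.68 RPKM, within the range of the BBSome genes.

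**Figure D2:**
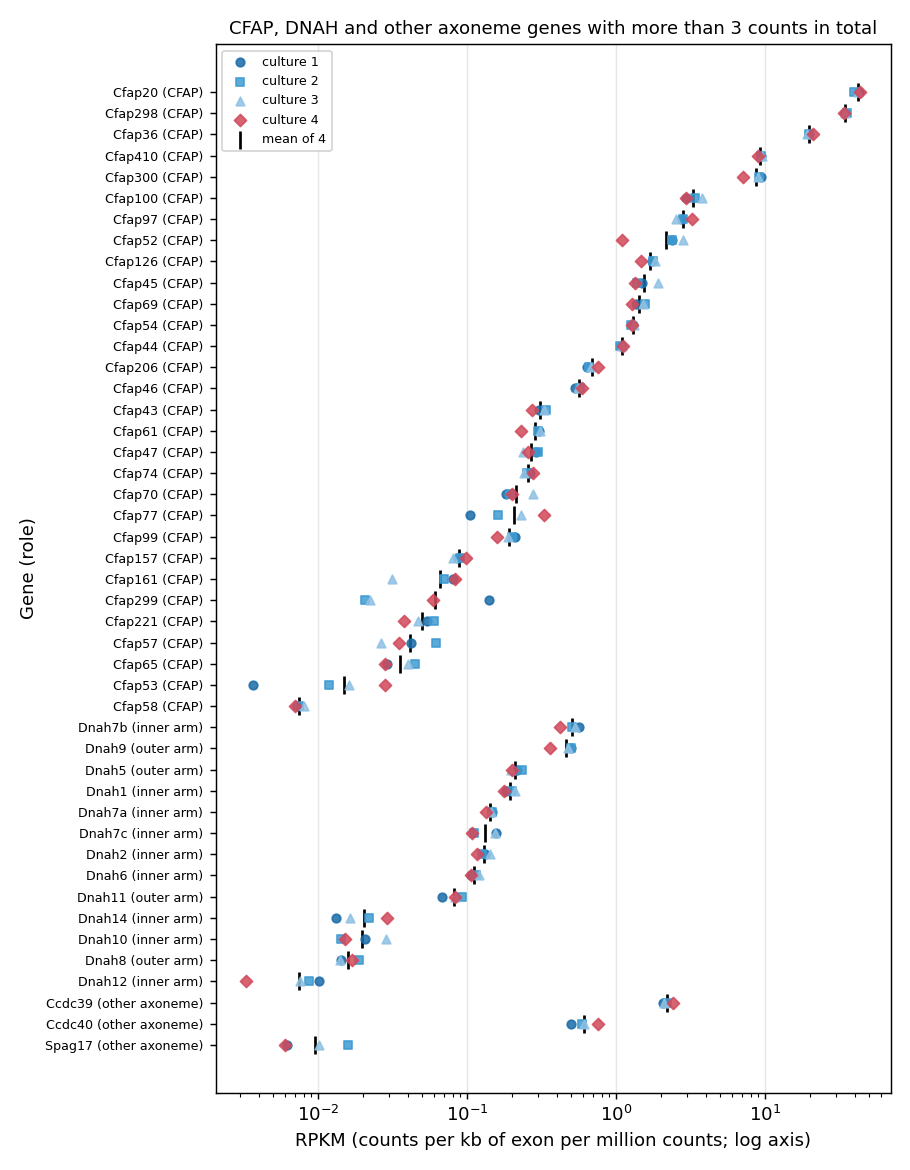
RPKM (horizontal, log axis) of the CFAP, DNAH and other axoneme genes with more than 3 counts in total, in each culture (points) with the mean (vertical bar). The means of CFAP genes run from 0.0075 to 41.8 RPKM, whereas the mean of every DNAH gene lies at or under 0.505.

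CFAP genes are grouped by symbol and not by a shared complex, and their mean levels ran from 0.0075 RPKM to 41.8. Cfap20, a protein of the axonemal doublet, measured 42.4, 39.3, 42.3 and 43.3 RPKM. Cfap298, a factor in dynein arm assembly, measured 34.3, 35.3, 34.4 and 34.0 RPKM. Cfap36, which binds the GTPase ARL3, measured 19.6, 19.9, 19.0 and 21.0 RPKM. The 3 ranges were apart from each other. Cfap20 was 1.21-fold above Cfap298 (log2 ratio 0.28 ± 0.04, SE; edgeR adjusted p = 0.000966), but with GENCODE lengths the log2 ratio was 0.0069 (edgeR adjusted p = 0.879). With those lengths Cfap36 was the highest CFAP gene, at 50.0 RPKM against 28.2 for Cfap20, as it was in CPM (83.2 against 54.2). Cfap36 overlaps Ppp4r3b on the other strand, a gene with 8727 counts against its own 13404, and no source used here says whether the counting was by strand, so its level is uncertain.

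Below them, Cfap410 and the dynein assembly factor gene Cfap300 measured 9.31 ± 0.29 and 8.65 ± 1.07 RPKM (SD, n = 4) and did not pass the test (edgeR adjusted p = 0.164). Cfap100 measured 3.26 ± 0.41, Cfap97 2.83 ± 0.29, Cfap126 1.70 ± 0.16, Cfap45 1.53 ± 0.26, Cfap69 1.43 ± 0.13, Cfap54 1.29 ± 0.02 and Cfap44 1.09 ± 0.02 RPKM (SD, n = 4). Neighbours in this stretch mostly could not be separated, so that their order is not firm. The order also depends on length: with GENCODE lengths Cfap100 was at 19.4 RPKM, above Cfap300 at 13.7. Cfap52, a doublet protein of motile cilia, measured 2.39, 2.37, 2.80 and 1.09 RPKM, with culture 4 well under the others.

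The other expressed CFAP genes were all under 1 RPKM by the deposited exon length, though Cfap74 was at 1.85 RPKM with GENCODE lengths. By the deposited length Cfap206 was at 0.685 ± 0.05, Cfap46 at 0.564 ± 0.03, Cfap43 at 0.311 ± 0.03, Cfap61 at 0.286 ± 0.04, Cfap47 at 0.271 ± 0.03, Cfap74 at 0.258 ± 0.02 and Cfap99 at 0.190 ± 0.02 (SD, n = 4). These genes encode parts of the beating axoneme, such as the central apparatus (Cfap46, Cfap47 and Cfap54 above) and the base of radial spokes (Cfap61, Cfap206). The levels of Cfap46 and Cfap99 are less certain. Cfap46 overlaps the pseudogene Gm4459 on the same strand, with 4489 counts against its own 1065. Cfap99 overlaps Zfyve28 on the other strand, with 2432 counts against its own 268. The 11 CFAP genes that were not expressed had between 2 and 136 counts over all libraries. Cfap70 came closest, at 30, 31, 41 and 34 counts. Cfap58 had 1 count in every library (0.0075 RPKM), and Cfap73 had 2 in all, under the floor of 3 counts below which no level is given. In the CFAP family 389 of 410 pairs passed the edgeR test, and 9 of 19 neighbours.

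DNAH genes, which encode the axonemal dynein heavy chains, the motors of ciliary beating, were the lowest group. Dnah7b, an inner arm chain, was at 0.562, 0.508, 0.530 and 0.422 RPKM. Dnah9, an outer arm chain, measured 0.499, 0.502, 0.475 and 0.362 RPKM. Dnah5, the other main outer arm chain, measured 0.217, 0.233, 0.196 and 0.200 RPKM. Dnah7b and Dnah9 overlapped and did not pass the test (log2 ratio 0.14 ± 0.07, SE; edgeR adjusted p = 0.0792). With GENCODE lengths Dnah9 was the higher one (log2 ratio -0.20, edgeR adjusted p = 0.0265). Dnah9 was 2.16-fold above Dnah5 (log2 ratio 1.11 ± 0.09, SE; edgeR adjusted p = 3.06e-05).

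Dnah7a, Dnah7b and Dnah7c are near-identical copies, and their counts were not whole numbers in all 4 libraries, as when reads are shared between genes. Their separate levels are therefore uncertain. The other expressed DNAH genes measured 0.193 ± 0.02 (Dnah1), 0.143 ± 0.01 (Dnah7a), 0.133 ± 0.03 (Dnah7c), 0.129 ± 0.01 (Dnah2), 0.112 ± 0.01 (Dnah6) and 0.0817 ± 0.01 RPKM (Dnah11), as SD with n = 4. Dnah11 overlaps Cdca7l, with 6285 counts, on the other strand.

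Another 6 DNAH genes were not expressed and had between 2 and 48 counts over all libraries. Dnah12, the lowest above the floor by the deposited exon length, had 6, 5, 4 and 2 counts, which is 0.0102, 0.0087, 0.0075 and 0.0033 RPKM. Dnah3 and Dnah17, with 3 and 2 counts in total, were at or under the floor. Inner and outer arm genes were low alike, with medians of 0.121 and 0.0817 RPKM over all members. By the deposited exon length the summed level of all 15 DNAH genes was 2.03 RPKM, and the mean of Foxj1 was 33.7 times that sum. This ratio depends on length: with GENCODE lengths Foxj1 was at 72.1 RPKM and the highest DNAH gene, Dnah9, at 0.771. In this family 83 of 90 pairs passed the edgeR test, and 3 of 8 neighbours.

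The other axoneme genes differed among themselves. Ccdc39 and Ccdc40 encode the molecular ruler that sets the spacing of dynein arms and spokes. Ccdc39 measured 2.06, 2.19, 2.11 and 2.42 RPKM, and Ccdc40 0.499, 0.588, 0.606 and 0.751 RPKM, both highest in culture 4. Ccdc39 overlaps Ttc14, with 11043 counts against its own 1907, on the other strand. Likewise Ccdc40 overlaps Tbc1d16, with 5896.5 counts against its own 514, on the other strand. Spag17, a central apparatus gene, had 2, 5, 3 and 2 counts and was not expressed.

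**Figure D3:**
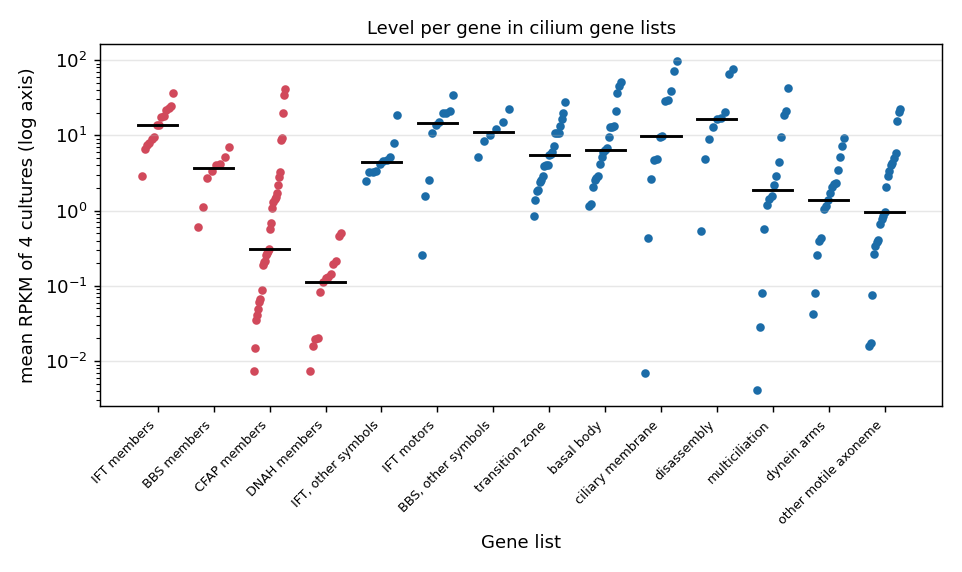
Mean RPKM over the 4 cultures (vertical, log axis) of each gene (points) in the IFT, BBS, CFAP and DNAH groups (red) and in 10 further cilium gene lists (blue), with the median of each list as a bar. Genes at or under the floor of 3 counts in total are not drawn, but the medians include them. Lists of the primary cilium have medians of 4.37 to 14.4 RPKM, and dynein arm and other motile axoneme genes 1.37 and 0.95. The disassembly list, which holds the mitotic kinase gene Plk1, has a median of 16.5.

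The same division was seen in cilium genes with other kinds of names. Every one of the 10 IFT genes with other symbols was expressed (median 4.37 RPKM), as were all 6 BBS genes with other symbols (11.2). The latter are not all subunits of the BBSome. Among the former, Ttc26, Ttc30a1, Ttc30a2 and Ttc30b had counts that were not whole in all 4 libraries, so their separate levels are uncertain. All 21 transition zone genes, which gate the base of the cilium (5.51), were expressed too. So were all 19 genes of the basal body and early ciliogenesis (6.36). Of the 10 IFT motor genes 9 were expressed (median 14.4), led by Dync2li1 at 34.8 RPKM. Of 12 ciliary membrane and cargo genes 10 were expressed (9.68), with the receptor genes Mchr1 and Sstr3 below the limit. All 9 genes of cilium disassembly were expressed (16.5), led by Nde1 at 76.9 and Plk1 at 65.5 RPKM, the latter also a mitotic kinase gene.

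In each list of the motile program some genes were not expressed, although the share that was lay above the 58.1% of all protein-coding genes. Of 17 dynein arm and assembly genes 13 were expressed (median 1.37 RPKM), with Lrrc6, Armc4, Dnaaf1 and Dnaaf6 below the limit and Dnaaf6 at 0. Of 21 further motile axoneme genes 15 were expressed (0.95), from Rsph3b at 22.3 RPKM to genes such as Hydin, a central apparatus gene with 41 counts in all (0.016 RPKM). The level of Rsph3b is less certain, since its counts were not whole in 3 libraries. Of 14 multiciliation genes 11 were expressed (1.86), led by Tfdp1 and the E2F genes E2f4 and E2f5, which also serve the cell cycle, whereas Deup1, Trp73 and Cdc20b were not.

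Cilium genes varied slightly more than other genes did with all 4 cultures, and about as much without culture 4. The median BCV of the 59 expressed members was 0.104, and 0.0262 without culture 4, beside 0.0941 and 0.0255 over all genes. Over the 13822 genes in the CPM range of these members it was 0.0878 with all 4 cultures. IFT genes had a median BCV of 0.0704, BBS genes 0.111, CFAP genes 0.111 and DNAH genes 0.118. Without culture 4 these were 0.0253, 0.0282, 0.0247 and 0.0285, so that 1 library set both their size and most of the gap between IFT genes and the rest.

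Culture 4 was compared with the others by its log2 CPM minus the mean log2 CPM of cultures 1 to 3, with no test since it is a single library. Over the 59 members the median difference was -0.01, with 29 genes above 0 and 30 below, beside 0.03 over 15214 genes. BBS genes had a median difference of 0.28. In 6 of 8 BBS genes culture 4 was above every other culture, beside 47% of all genes. DNAH genes had a median difference of -0.17. In 6 of 9 expressed DNAH genes culture 4 was below every other culture, beside 35.2% of all genes, and in none was it above. Among the 6 are the near-identical copies Dnah7a, Dnah7b and Dnah7c, whose reads may be shared, so these are not separate observations. Some gaps were small: Dnah7c was at 1.41 CPM in culture 4 and 1.45 CPM in culture 2. CFAP genes had a median difference of -0.10 (7 above every other culture and 11 below), and IFT genes 0.03 (7 above and 4 below).

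**Figure D4:**
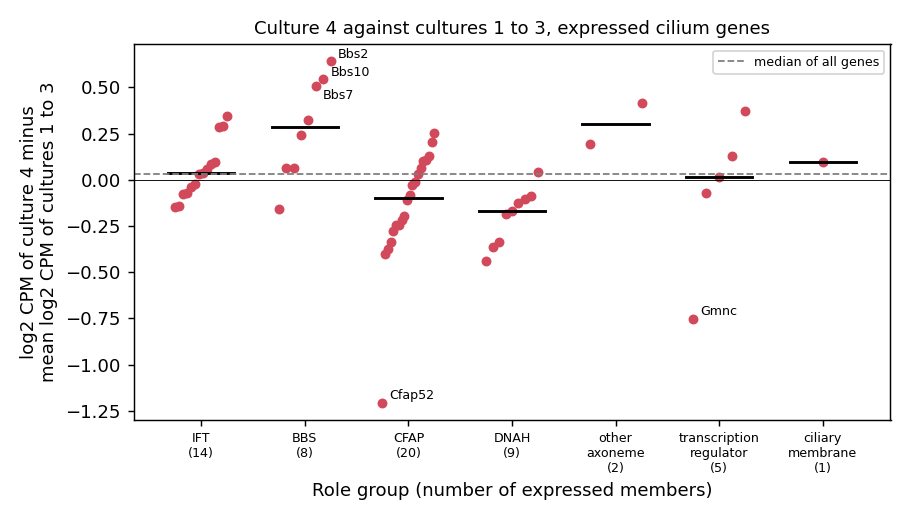
Log2 CPM of culture 4 minus the mean log2 CPM of cultures 1 to 3 (vertical) for each of the 59 expressed cilium genes (points) by role group, with group medians as bars and the median of all genes as a dashed line. BBS genes lie mostly above 0 (median 0.28) and DNAH genes mostly below (median -0.17).

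The 5 genes with the largest differences were Cfap52 (-1.21), Gmnc (-0.75), Bbs2 (0.64), Bbs10 (0.54) and Bbs7 (0.51). Cfap52 measured 5.33, 5.29, 6.25 and 2.43 CPM, so that culture 4 was under the other 3. Bbs2 measured 15.7, 17.2, 17.8 and 26.3 CPM and Bbs10 2.60, 2.92, 2.84 and 4.06 CPM, so that culture 4 was above them. The level of Foxj1 in culture 4 lay between those of the other cultures.

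The further lists also differed from each other in culture 4. It was above every other culture in 18 of 21 transition zone genes, 16 of 19 basal body genes and 7 of 9 disassembly genes, beside 47% of all genes. It was below every other culture in 10 of 15 expressed genes of the further motile axoneme list (median difference -0.34), beside 35.2% of all genes. Among the 10 are Rsph3a and Rsph3b, whose counts were not whole in 3 libraries each, as when reads are shared between genes. These 2 may not be separate observations. The other lists of the motile program did not go the way of this list. Of 11 expressed multiciliation genes 9 were above every other culture and none below (0.21), and of 13 expressed dynein arm and assembly genes 5 were above and 6 below (-0.03). Cell type and proliferation markers were set beside these groups. Among expressed markers culture 4 was below every other culture in 3 of 5 for neurons, 4 of 6 for the oligodendrocyte lineage and 2 of 2 for endothelium. It was above in 1 neuron marker, 2 oligodendrocyte lineage markers and 1 of 2 choroid plexus markers. Of the 10 astrocyte markers culture 4 was below every other culture in 6 and above in 4, and their sum was 6432 CPM against 7450 to 7629. Gfap, the astrocyte intermediate filament gene, was at 779.7 CPM in culture 4 and 1498 to 1555 CPM in the others. Culture 4 was above every other culture in all 10 proliferation genes, whose summed level was 2526 CPM against 1847 to 1858 in cultures 1 to 3. It was below every other culture in all 4 expressed fibroblast markers, whose list summed to 512 CPM against 1354 to 1437, and in all 5 expressed microglial markers, whose list summed to 56 CPM against 84.1 to 93.5. The 10 ependymal markers summed to 226.7 CPM in culture 4 and 230.1 to 249.1 in the others, but most of that sum is Foxj1. The 9 others summed to 36.0 CPM in culture 4 and 47.3 to 50.9 in the others. Among them Rarres2 was at 11.5 CPM against 18.5 to 20.4, and Rsph1, which is also in the motile axoneme list, at 13.4 against 17.99 to 18.7, while Enkur was at 7.10 against 6.84 to 7.06. The part of these cell types in the cilium gene differences was not tested.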

How the data were processed

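Poly-A RNA of 4 cultures was sequenced. The deposited values are estimated counts per gene, per the file headers and their values: 31.7% of those above 0 are not whole numbers. Tools listed in the submitters' processing notes are STAR 2.7.2b, featureCounts 1.6.4, cutadapt 1.17 and bcl2fastq 2.20.0.422, with GRCm38.p6 as the build. No source used here gives their roles, settings or strand mode. The library kit is stranded, per the labels' protocols.

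CPM were computed from raw library sums, and RPKM with the deposited combined exon length, which covers all annotated exons and so understates genes read from short transcripts. Expressed meant 1 CPM or more in each library, and 3 counts in total were the floor, which covers counting error only, since PCR copies were not marked by molecular identifiers. Counts were rounded for edgeR 4.0.16 (R 4.3.3). The plan had assumed whole counts. Each pair of members of one family with at least 1 expressed member was fitted with its 8 counts, the offset log(library size × exon length) and terms for library and gene. The test was two-sided, with Benjamini-Hochberg adjustment at 0.05, and was tested on simulated data. SEs were calculated back from its F statistic. BCV came from edgeR with TMM, an intercept-only design and the default filter on low counts. DESeq2 1.42.0 was an alternative.

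The genes, lists and tests were chosen with earlier results of these data known. Per-culture values are given for the 3 highest and the lowest gene above the floor in each group, all regulators, Arl13b, and the 5 genes with the largest culture 4 difference. Of the genes, 38 overlap another gene's span and 19 have a count that is not whole in some library, and the levels of these are less certain. GENCODE lengths were found for 76. Of 208 further list genes, 3 were matched through synonyms. Alternatives were other scalings, filters, lengths and tools, and leaving out each culture.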

Additional observations from a re-analysis of the deposited data

Results flagged for a closer look

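Among 75 cilium genes above the floor, 3 had 1 culture far from the other 3 by Dixon's ratio of gap to range at its 95% limit, which is 4% of them, and chance gives about 1 in 20. All 3 involve culture 4, which stood apart across all genes. Bbs7, a BBSome gene, measured 25.7 CPM in culture 4 and 17.6 to 18.9 CPM in the others. Ift140, an IFT-A gene, measured 53.6 CPM in culture 4 and 41.4 to 43.3 CPM in the others. Cfap61, a gene of the radial spoke base, measured 1.20 CPM in culture 4 and 1.57 to 1.61 CPM in the others.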

How the results depend on the processing

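No paired analysis was possible because all 4 cultures form 1 group. The count of 59 expressed genes was 59 under both other scalings and without each culture, 60 at 0.5 CPM, 75 with no filter and 45 at 1 TPM. Of 622 pairs 586 passed the edgeR test. With both members expressed 320 of 348 did, since fewer pairs entered; with DESeq2 580 did, and leaving out a culture gave 578 to 595. The length term mattered most: without it 503 of the 586 called pairs kept call and direction and 70 changed sign, and with GENCODE lengths 491 of 533 kept both and 27 changed sign. Of the 15 DNAH genes 9 passed at 1 CPM and 1 at 1 TPM. Among named pairs Dnah7b over Dnah9 reversed with GENCODE lengths (log2 ratio -0.20) and Rfx2 over Rfx3 without the length term (log2 ratio -0.0266). The median BCV of the members was 0.0262 to 0.128 when a culture was left out, the lowest without culture 4. The median difference of culture 4 over the members was 0.0484 at a mean CPM of at least 5, and -0.01 to 0.0017 when another culture was left out, so that it has no firm sign. The median of the DNAH genes was negative and that of the BBS genes positive in each setting run. At a mean CPM of at least 5, however, the DNAH median was -0.39 and rested on 2 genes, against -0.17 over 9 genes. The single arm of the X-box gave 25 promoters in place of 5. Depth limits the genes of few counts: 19 of the 78 were not expressed, and 3 were at or under 3 counts in total.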
